A study of Homo sapiens with 5 samples.

Results

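The genes of MHC class I antigen presentation were followed in TOV21G cells and in clones of these cells that had become resistant to an EZH2 inhibitor. TOV21G is an established ARID1A-mutated line from a human clear cell carcinoma of the ovary, and GSK126 inhibits EZH2, the histone methyltransferase of the polycomb repressive complex PRC2. The 9 genes were those whose Ensembl identifiers in the deposited count table map to HLA-B, HLA-C, HLA-E, HLA-F, B2M, TAP1, TAP2, TAPBP and NLRC5 on the primary assembly, out of 30476 genes in all. RNA-seq of total RNA had been performed on 5 libraries, 1 of parental cells and 4 of EZH2 inhibitor-resistant (EIR) cells. The EIR libraries came from clone 3 and clone 4, each profiled untreated and treated with GSK126. All resistant cells had been grown from the parental line in GSK126 that was raised in steps from 5 to 20 uM, after which clones were picked. Every library is thus of the ARID1A-mutated line, and each EIR clone stands for a single clonal line. How much GSK126 the treated cultures received, and for how long, was not used here. The parental group has no replicate, and the 2 libraries of a clone are 1 clone under different treatment, so that the p-values below measure the spread between these libraries only.

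MHC class I molecules display peptides from inside the cell to cytotoxic T cells and natural killer cells. The proteasome cuts proteins into peptides, the TAP1 and TAP2 proteins carry them into the endoplasmic reticulum, and tapasin (TAPBP) holds the empty class I molecule at the transporter until a peptide is loaded. The class I molecule is a heavy chain (classical HLA-B and HLA-C, non-classical HLA-E and HLA-F) bound to beta-2 microglobulin (B2M). NLRC5 is a transactivator of class I genes, and interferon gamma raises most of the pathway. Loss of class I display is a known route by which tumour cells escape T cells.

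Of the 9 genes, 7 lie on chromosome 6. In GRCh37, the assembly of the hg19 build used for the deposited table, HLA-F lies at chr6:29690552-29706305 on the plus strand, HLA-E at chr6:30457286-30461971 on the plus strand, HLA-C at chr6:31236526-31239907 and HLA-B at chr6:31321649-31334844, both on the minus strand. TAP2 (chr6:32789610-32806516), TAP1 (chr6:32812986-32821593) and TAPBP (chr6:33267471-33282061) follow on the minus strand. B2M lies outside the MHC at chr15:45003556-45011049 and NLRC5 at chr16:57023397-57117443, both on the plus strand. These are spans of whole genes, exons and introns together.

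Promoters of 4 of the genes are shown because they carry the elements through which class I genes are known to respond to interferon, and because HLA-B and HLA-C, near-copies of each other, differed unequally between the clones. The sequences are the 250 bases before the RefSeq start, on the strand of the gene, in GRCh38.p14. Capitals mark each match to the core letters of an interferon regulatory factor (IRF) element, AANNGAAA, on either strand.
HLA-B, chr6:31357180-31357429, minus strand: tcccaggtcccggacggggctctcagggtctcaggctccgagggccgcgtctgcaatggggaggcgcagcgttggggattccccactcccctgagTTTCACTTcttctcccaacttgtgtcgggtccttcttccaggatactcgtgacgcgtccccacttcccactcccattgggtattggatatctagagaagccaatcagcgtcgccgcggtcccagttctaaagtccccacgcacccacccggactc
HLA-C, chr6:31272093-31272342, minus strand: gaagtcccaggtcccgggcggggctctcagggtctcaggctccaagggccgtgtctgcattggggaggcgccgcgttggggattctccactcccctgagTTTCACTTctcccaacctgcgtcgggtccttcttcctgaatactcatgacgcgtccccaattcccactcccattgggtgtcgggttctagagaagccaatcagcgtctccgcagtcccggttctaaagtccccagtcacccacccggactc
B2M, chr15:44711267-44711516, plus strand: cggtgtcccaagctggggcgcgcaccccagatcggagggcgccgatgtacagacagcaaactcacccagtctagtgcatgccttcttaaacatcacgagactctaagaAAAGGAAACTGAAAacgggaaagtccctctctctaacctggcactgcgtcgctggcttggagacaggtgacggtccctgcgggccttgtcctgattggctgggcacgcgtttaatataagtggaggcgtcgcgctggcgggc
TAP1, chr6:32853705-32853954, minus strand: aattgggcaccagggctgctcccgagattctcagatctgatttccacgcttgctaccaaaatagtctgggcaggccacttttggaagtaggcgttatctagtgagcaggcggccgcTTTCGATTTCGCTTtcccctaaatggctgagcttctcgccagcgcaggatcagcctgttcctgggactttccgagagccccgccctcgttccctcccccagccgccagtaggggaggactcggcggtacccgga
RefSeq promoter entries matched 7 of the 9 genes (8 entries, since TAP1 had 2), and no entry was matched for HLA-E or NLRC5. The IRF core letters were found in 7 of these 7 genes, against 20.3% of all 35116 promoters of the same length. For each motif a gene counted if any of its entries matched, whereas the shares are of single promoters. The second TAP1 entry, which is not shown, held 0 matches to the IRF core. The core letters were chosen after a longer form, GAANNGAAA, had been searched. That form matched 3 of the 7 genes and 6.56% of all promoters, and its matches overlap those of the core. The letters CCAAT, bound by NF-Y, were found in 5 of the 7 genes (32.0% of all promoters), an NF-kB motif in 5 (9.96%) and the interferon gamma-activated motif TTCNNNGAA in 1 (6.57%), each on either strand. The HLA-B and HLA-C windows were identical in 89.0% of 254 aligned columns, and each held 1 match to the IRF core. These are matches of letters in a reference sequence, with no measurement of binding.

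Total estimated counts ranged from 25479238 to 30764963 per library, and between 15588 and 16432 genes had at least 10 counts. Of the epithelial and clear cell carcinoma markers, 9 of 10 were in the table, with a summed level of 764 to 983 CPM (counts scaled to a fixed library total) in the 5 libraries; KRT8, KRT18 and PAX8 were abundant in each, while NAPSA did not exceed 49.4 normalized counts. Of these 9 markers 5 were called lower and 0 higher in clone 4 against clone 3 (KRT8, EPCAM, CDH1, MUC1 and NAPSA; 4 in edgeR). Of all genes tested 6.52% were called lower and 3.3% higher, and 4.26% lower in edgeR. KRT18 (log2 fold change 0.32) and ARID1A (0.74) were positive, KRT7 (-0.23) and PAX8 (-0.21) negative, and none of these passed. EPCAM, an epithelial adhesion molecule, stood at 401 normalized counts in parental cells and at 394 and 492 in clone 3, but at 0 and 1.06 in clone 4. Leukocyte markers (6 of 10 in the table) summed to 2.68 to 6.42 CPM, with PTPRC at 2.01 to 14.8 normalized counts, and the higher sums were those of clone 3, where ITGAM stood at 93.5 and 97.8 against 3.05 to 9.52 elsewhere. The monocyte markers went other ways, with CD14 at 27.2 in parental cells and 0 to 7.41 in the EIR libraries and CD68 highest, at 87.5, in untreated clone 4. Fibroblast and endothelial markers (7 of 8 in the table) summed to 16.4 to 36.6 CPM, with PDGFRB at 3.02 to 16.9 and LUM at 0 to 4.94 normalized counts. ACTA2, a smooth muscle actin that made up most of this sum, stood at 981 in parental cells, 450 and 344 in untreated and treated clone 3, and 687 and 677 in clone 4, and was higher in clone 4 than in clone 3 (log2 fold change 0.79, adjusted p = 0.0240). The part of these marker differences in the results below was not tested.

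The heavy chain genes differed between the clones, HLA-B by far the most. HLA-B, a classical heavy chain, stood at 3176 normalized counts (counts divided by the library's size factor) in parental cells, 3735 in untreated and 4332 in GSK126-treated clone 3, and 221 in untreated and 309 in GSK126-treated clone 4. Both clone 4 libraries lay far below all others. HLA-C stood at 2358 in parental cells, 1796 and 1999 in untreated and treated clone 3, and 1010 and 1322 in untreated and treated clone 4. HLA-E, a ligand of the inhibitory natural killer receptor NKG2A, showed the same order, with 4403 in parental cells, 3418 and 3095 in clone 3, and 1712 and 1846 in clone 4. For both genes parental cells were highest and clone 4 lowest, and the clones did not overlap. HLA-F was close to the detection limit, with 6 counts in parental cells, 12 in each clone 3 library, and 2 and 3 in untreated and treated clone 4. Its summed counts gave a clone 3 to clone 4 ratio of 4.42 (95% exact interval 1.65 to 14.8, counting error only).

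The light chain, the loading machinery and NLRC5 also stood lower in clone 4 than in clone 3, by less than HLA-B. B2M stood at 11031 normalized counts in parental cells, 13546 and 16027 in untreated and treated clone 3, and 8344 and 7440 in untreated and treated clone 4. TAP1 stood at 1808 in parental cells, 2367 and 2526 in clone 3, and 884 and 863 in clone 4. In both genes clone 3 was above and clone 4 below parental cells. TAP2 differed from TAP1 in where parental cells stood, with 701 in parental cells, 1242 and 1375 in clone 3, and 845 and 950 in clone 4, so that parental cells were lowest. TAPBP stood at 3815 in parental cells, 3892 in each clone 3 library, and 2455 and 2742 in clone 4. NLRC5 was scarce, with 15.1 normalized counts in parental cells, 105 and 147 in untreated and treated clone 3, and 39.7 and 86.8 in untreated and treated clone 4. All 4 EIR libraries lay above parental cells for NLRC5 and for TAP2.

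**Figure D1:**
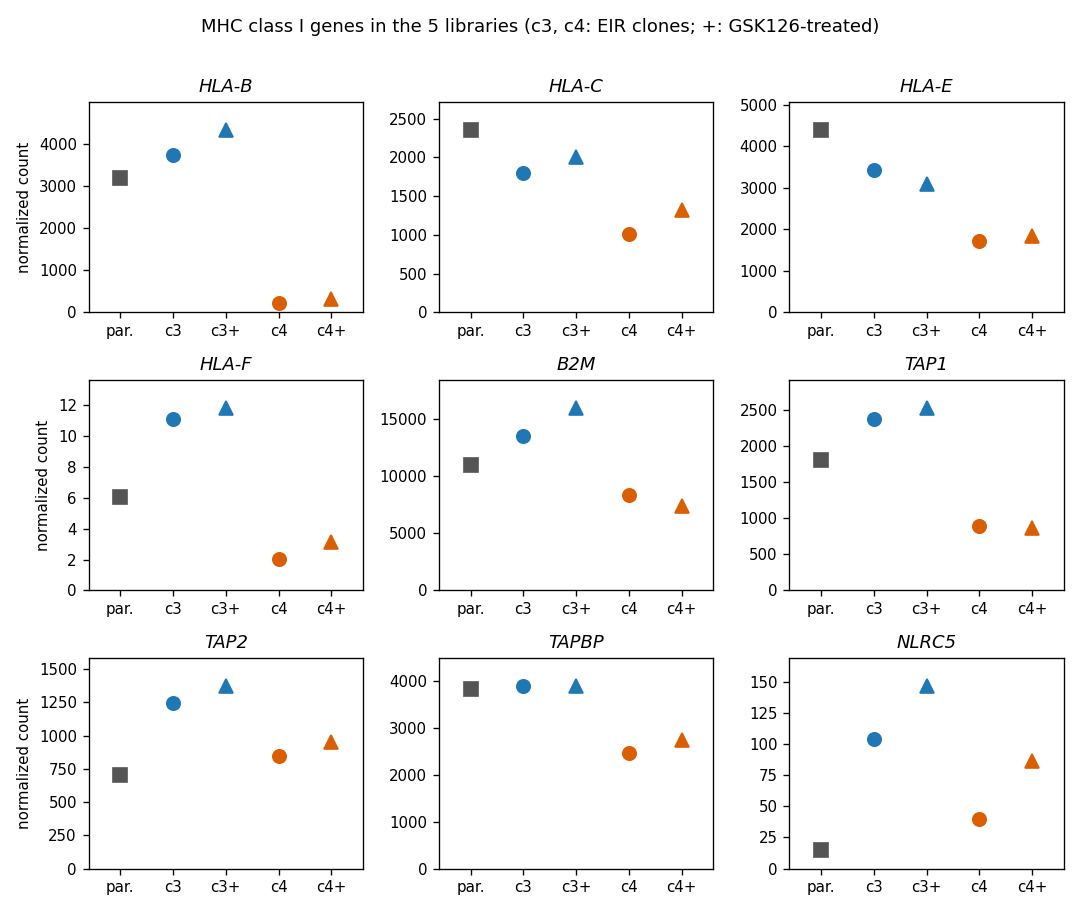
Normalized counts (y axis, linear, from 0) of the 9 genes in each of the 5 libraries (x axis: par., parental; c3 and c4, untreated clones; c3+ and c4+, GSK126-treated clones); each point is 1 library and there are no error bars. HLA-B falls from 3735 and 4332 in clone 3 to 221 and 309 in clone 4, and both clone 4 libraries are below both clone 3 libraries in each of the 9 panels.

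In clone 4 against clone 3, 6 of the 9 genes were lower and 0 higher at an adjusted p under 0.05 (DESeq2, treatment as covariate), while 6.52% of all 17708 genes tested were called lower and 3.3% higher. HLA-B was 15.4-fold lower (log2 fold change -3.95 ± 0.19 SE, adjusted p = 4.21e-88). TAP1 was 2.81-fold lower (-1.49 ± 0.19, adjusted p = 3.33e-13) and B2M 1.88-fold lower (-0.91 ± 0.17, adjusted p = 3.92e-06). HLA-E was 1.84-fold lower (adjusted p = 4.05e-05), HLA-C 1.65-fold lower (adjusted p = 0.00384) and TAPBP 1.51-fold lower (adjusted p = 0.00955). TAP2 had a log2 fold change of -0.55 (95% interval -0.95 to -0.15, adjusted p = 0.0646), NLRC5 of -1.08 (-2.06 to -0.10, adjusted p = 0.200) and HLA-F of -2.17 (-5.52 to 1.17, adjusted p = 0.617), and these 3 genes did not pass. The median over the 9 genes was -0.91, beside -0.0037 over all genes tested. Both clone 4 libraries were below both clone 3 libraries in 9 of the 9 genes, an order that 32.6% of the 16928 genes with at least 10 counts in at least 2 libraries showed too. In edgeR 7 of the 9 genes were lower (4.26% of all genes), and after a correction for GC content also 7 (6.84% of all genes), TAP2 being the gene added in both (adjusted p = 0.0495 and 0.0416). The calls of HLA-C and TAPBP rested on having both clone 3 libraries, with adjusted p = 0.0875 and 0.183 without the untreated and 0.254 and 0.167 without the GSK126-treated clone 3 library. Without the GSK126-treated clone 4 library NLRC5 passed, at a log2 fold change of -1.67 (adjusted p = 0.0208).

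HLA-B stood apart from the other heavy chains and not only in its fold change. The ratio of HLA-B to HLA-C counts was 1.35 in parental cells, 2.08 and 2.17 in untreated and treated clone 3, and 0.219 and 0.234 in untreated and treated clone 4. The ratio of HLA-B to HLA-E counts was 0.721 in parental cells, 1.09 and 1.40 in clone 3, and 0.129 and 0.167 in clone 4. Such ratios within a library do not depend on its scaling, and they show that the genes changed unequally. Of the 11564 expressed genes (mean normalized count of 100 or more), 99 (0.856%) had a log2 fold change in clone 4 against clone 3 at or below that of HLA-B, and the corresponding share was 3.00% for TAP1 and 5.27% for B2M. Summed over HLA-B, HLA-C, HLA-E and HLA-F, normalized counts were 2.86-fold lower in clone 4 than in clone 3, and over all 12 class I HLA genes and pseudogenes of the table they were 2.16-fold lower. HLA genes share sequence, and RSEM divides reads that fit several genes by estimation. In the main annotated transcripts, 0% of 75-base windows (the read length) of HLA-B, 1.98% of HLA-C and 2.30% of HLA-E also occur, letter for letter, in another gene of the reference. Windows that differ by a few bases were not counted, so these shares cannot show how many reads fit several genes. The alleles of the cell line were not examined. For TAP1 to TAP2, the count ratio was 2.58 in parental cells, 1.91 and 1.84 in clone 3, and 1.05 and 0.909 in clone 4, so that it was lower in every EIR library than in parental cells. TAP2 shares 35.0% of its windows with a read-through gene, ENSG00000250264, which held 0 to 25 counts, and TAP1 lies within the span of PSMB9 on the other strand, for which strand-aware counting is not stated.

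Levels of different genes were compared as counts per base of gene length, scaled to the same sum in each library, with the median transcript length of a gene. This unit is called TPM here and differs from the CPM of the markers, which does not use length. B2M was the most abundant of the 9 genes in each library, from 308 TPM in untreated clone 4 to 708 in GSK126-treated clone 3, followed by HLA-E at 52.4 to 149 TPM. The order of libraries within a gene can differ between TPM and normalized counts, which are scaled differently. B2M stood at 308 TPM in untreated and 356 in treated clone 4, but at 8344 and 7440 normalized counts. HLA-B was in place 4 in parental cells and 3 in both clone 3 libraries but in place 7 in both clone 4 libraries, where it was at 3.14 and 5.69 TPM. HLA-F (0.0725 to 0.504 TPM) and NLRC5 (0.454 to 4.79 TPM) were in the lowest places. With the longest or the main transcript as the length, B2M kept place 1 in all 5 libraries, and places of other genes exchanged: HLA-B, HLA-C, HLA-E and TAPBP in places 2 to 5, HLA-F and NLRC5 in parental cells, and, with the main transcript, HLA-B and TAP2 in GSK126-treated clone 4.

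Parental cells lay between the clones for HLA-B, HLA-F, B2M, TAP1 and TAPBP. They lay above both clones for HLA-C and HLA-E and below both for TAP2 and NLRC5. In clone 3, TAP2 (1.87-fold, log2 fold change 0.90 ± 0.22 SE, adjusted p = 0.00035) and NLRC5 (8.33-fold, 3.06 ± 0.72, adjusted p = 0.000178) were higher and HLA-E was lower (log2 fold change -0.44 ± 0.18, adjusted p = 0.0493), out of 8 genes tested. HLA-F was left out of the adjusted test for its low counts in each comparison with parental cells. Over all 16886 genes tested, 14.7% were called higher and 14.5% lower. B2M (log2 fold change 0.42, 95% interval 0.08 to 0.76, adjusted p = 0.0506), TAP1 (0.44, 0.07 to 0.81, adjusted p = 0.0665), HLA-B (0.34, -0.07 to 0.76, adjusted p = 0.240), HLA-C (-0.31, -0.74 to 0.11) and TAPBP (0.03, -0.31 to 0.37) did not pass. Both clone 3 libraries were above parental cells in 7 of the 9 genes, as in 44.5% of the 16928 genes. Without the GSK126-treated clone 3 library 0 of the 9 genes passed in DESeq2, with adjusted p = 0.101 for TAP2 and 0.0598 for NLRC5.

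In clone 4 against parental cells, 6 genes were lower and 1 higher, out of 8 tested. HLA-B stood at 0.0833 times the parental level (log2 fold change -3.58 ± 0.22 SE, adjusted p = 1.2e-55). HLA-E was 2.48-fold lower (adjusted p = 8.37e-12), TAP1 2.07-fold lower (adjusted p = 6.02e-07) and HLA-C 2.02-fold lower (adjusted p = 2.94e-05). TAPBP (1.47-fold lower, adjusted p = 0.0065) and B2M (1.40-fold lower, adjusted p = 0.0200) passed with smaller changes, but B2M did not in edgeR (adjusted p = 0.0640). NLRC5 was 4.18-fold higher (log2 fold change 2.06 ± 0.72, adjusted p = 0.0167), and TAP2 did not pass (0.36, 95% interval -0.08 to 0.79). Over all 16295 genes tested, 18.3% were called lower and 14.7% higher, and both clone 4 libraries were below parental cells in 7 of the 9 genes, as in 43.7% of the 16928 genes. Without either one of the clone 3 libraries, which lend their spread to this fit, TAPBP, B2M and NLRC5 no longer passed (adjusted p from 0.0794 to 0.123), and NLRC5 did not pass without the GSK126-treated clone 4 library (log2 fold change 1.40, adjusted p = 0.266).

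**Figure D2:**
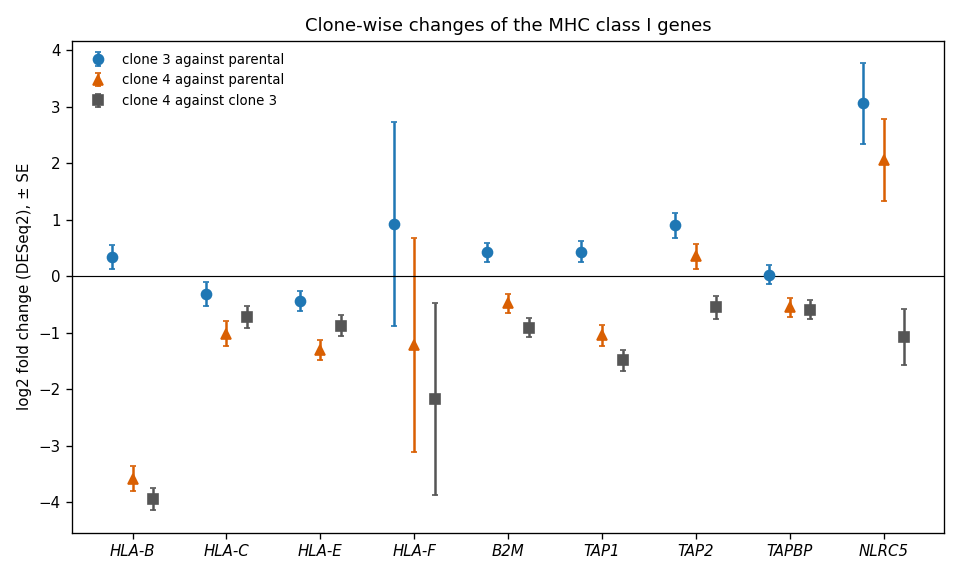
Log2 fold change (y axis, ± SE from DESeq2) of the 9 genes in clone 3 against parental cells, clone 4 against parental cells and clone 4 against clone 3; the first 2 comparisons share the parental library. HLA-B is at 0.34, -3.58 and -3.95, NLRC5 is above 0 in both clones against parental cells, and the long bars of HLA-F reflect counts of 2 to 12.

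Comparisons with parental cells moved with GC content. Among genes with 55 to 60% GC, the range that holds HLA-B, HLA-F, TAP1, TAPBP and NLRC5, the median log2 fold change was -0.30 in clone 3 and -0.38 in clone 4 against parental cells, but -0.09 in clone 4 against clone 3. HLA-C (60.1%) and HLA-E (64.7%) lie in the class over 60%, whose medians were -0.41, -0.54 and -0.11, and B2M has 41.3% GC. With each library corrected for its trend on GC content, HLA-B (log2 fold change 0.67, adjusted p = 0.00608) and TAP1 (0.75, adjusted p = 0.000177) passed as higher in clone 3 than in parental cells, and HLA-E did not pass (0.01, adjusted p = 0.969). In clone 4 against parental cells HLA-B was then 9.17-fold lower (adjusted p = 2.66e-48). HLA-E (log2 fold change -0.75, adjusted p = 5.71e-05), HLA-C (-0.57, adjusted p = 0.0223) and TAP1 (-0.67, adjusted p = 0.000965) still passed, with smaller differences than the -1.31, -1.02 and -1.05 without the correction. B2M was at -0.73 (adjusted p = 4.89e-06), from -0.48 without it, and TAPBP did not pass (-0.19, adjusted p = 0.400). Since parental cells are a single library, a GC trend of that library and a difference of the resistant cells cannot be told apart.

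With the EIR libraries taken as 1 group against parental cells, 1 of the 9 genes passed. NLRC5 was 6.26-fold higher (log2 fold change 2.65 ± 0.81 SE, adjusted p = 0.00746), with 4 of 4 EIR libraries above parental cells, but not in edgeR (2.62, adjusted p = 0.114) or with treatment as covariate (adjusted p = 0.101). Over the 16288 genes tested 12.4% were called higher and 13.2% lower. In HLA-B the mean over EIR libraries was 2149 ± 2190 (SD, n = 4) normalized counts, beside 3176 in parental cells, because the clones lay on either side of the parental library. B2M (11339 ± 4124) and TAP1 (1660 ± 910) in the EIR libraries were likewise near the parental values of 11031 and 1808, with an SD that reflects the clones.

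GSK126 treatment of the resistant clones gave no call among the 9 genes. In DESeq2 0 of 9 passed, 0 of 9 had an unadjusted p under 0.05, and 0.00335% of the 29847 genes tested were called in either direction; edgeR also called 0 of 9. Treated cells were above untreated cells in both clones for 5 of the 9 genes, as in 27.8% of the 16928 genes. With the clone as a replicate block, the log2 fold change was 0.32 for HLA-B (95% interval -0.06 to 0.70), 0.26 for HLA-C (-0.12 to 0.64), -0.03 for HLA-E (-0.39 to 0.33) and 0.03 for B2M (-0.31 to 0.36), and 0 of 9 genes passed (adjusted p = 0.9999 in each). NLRC5 had the largest value among the 9, 0.78 (-0.20 to 1.77), and was the only member with an unadjusted p under 0.05 in the blocked edgeR fit, where its adjusted p was 0.962.

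The rest of the pathway was described with lists of genes, whose counts in clone 4 against clone 3 stand beside 6.52% of all genes tested that fell, 3.3% that rose and a median of -0.0037. In this comparison, fell and rose mean lower and higher in clone 4 than in clone 3, and neither clone came from the other. Of 5 immunoproteasome and activator genes, 2 fell and 0 rose in clone 4 against clone 3, with a median log2 fold change of -0.44. PSMB8, a catalytic subunit of the immunoproteasome, stood at 747 normalized counts in parental cells, 1101 and 1238 in untreated and treated clone 3, and 129 and 135 in untreated and treated clone 4 (log2 fold change -3.15, adjusted p = 4.88e-35). PSMB9, its partner subunit, stood at 173 in parental cells, 321 and 355 in clone 3, and 145 and 128 in clone 4 (log2 fold change -1.31, adjusted p = 0.00178). PSMB8 lies between TAP2 and TAP1 and PSMB9 spans TAP1, and in both genes the clones did not overlap. Of 14 constitutive proteasome genes tested, 1 rose (PSMB1, log2 fold change 0.53, adjusted p = 0.0262, not called in edgeR) and 0 fell, with a median of -0.12. Of 9 peptide loading and trimming genes 0 passed in clone 4 against clone 3 in DESeq2 and 0 in edgeR (2 at an unadjusted p under 0.05 in each), among them the chaperones CALR and CANX and the peptidases ERAP1 and ERAP2.

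Of 24 class I regulators, 5 fell and 0 rose in clone 4 against clone 3 (6 fell in edgeR), with a median of -0.26; of all genes tested 6.52% fell and 3.3% rose, and 4.26% fell in edgeR. IFNGR1, a chain of the interferon gamma receptor, stood at 1481 normalized counts in parental cells, 2863 and 3083 in untreated and treated clone 3, and 1552 and 1292 in untreated and treated clone 4, so that clone 3 was high and clone 4 near parental cells (log2 fold change -1.08, adjusted p = 5.93e-07). RFX5, a subunit of the factor that binds the X box of class I and class II promoters, stood at 2909 in parental cells, 3219 and 3262 in clone 3, and 1848 and 1605 in clone 4 (-0.92, adjusted p = 1.2e-05). In EIR against parental cells, where 12.4% of all genes tested were called higher and 13.2% lower, 1 regulator rose (CREB1, 0.53, adjusted p = 0.00312) and 3 fell, IRF2 by 1.12 (adjusted p = 0.00756), IFNGR2 by 0.89 (adjusted p = 0.000393) and STAT2 by 0.80 on the log2 scale (adjusted p = 0.00468). In edgeR IFNGR2 passed (adjusted p = 0.0289), while CREB1 (adjusted p = 0.103), IRF2 (0.0573) and STAT2 (0.0518) did not.

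The interferon-stimulated list gave 7 genes that fell and 0 that rose among 28 tested in clone 4 against clone 3 (6.52% and 3.3% of all genes), with a median of -0.53. IFITM1, an antiviral membrane protein, stood at 1719 normalized counts in parental cells, 1853 and 1289 in untreated and treated clone 3, and 229 and 243 in clone 4 (log2 fold change -2.72, adjusted p = 1.86e-27). MX1, an antiviral GTPase, stood at 76.5 in parental cells, 453 and 462 in clone 3, and 65.1 and 106 in clone 4 (-2.46, adjusted p = 5.81e-11). IFITM3 stood at 311 in parental cells, 989 and 776 in clone 3, and 170 and 193 in clone 4 (-2.28, adjusted p = 1.27e-15). Against parental cells 4 genes of the list rose and 1 fell in the EIR group (12.4% and 13.2% of all genes), with BST2 (log2 fold change 2.06, adjusted p = 1.99e-14), OAS1 (2.64, adjusted p = 0.000485) and OAS3 (1.28, adjusted p = 0.00205) higher and ISG15 lower (-1.56, adjusted p = 0.000222). In edgeR, OAS1 and OAS3 did not pass there (adjusted p = 0.0599 and 0.0604). BST2, which tethers virions to the cell, stood at 701 normalized counts in parental cells and at 2466 to 3329 in the EIR libraries, so that it was high in both clones, whereas MX1 and IFITM3 were high in clone 3 and near or below the parental level in clone 4.

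MHC class II genes, which display peptides from outside the cell, gave 4 falls and 0 rises among 9 tested in clone 4 against clone 3 (6.52% and 3.3% of all genes), with a median of -2.19. The gene at that median, HLA-DRB5, held 2 to 17 counts in the 5 libraries, and HLA-DPA1 and HLA-DPB1 held 0 in parental cells and at most 24 in the others; these 3 genes did not pass. CD74, the invariant chain, stood at 16.1 normalized counts in parental cells, 1171 and 984 in untreated and treated clone 3, and 27.5 and 32.8 in untreated and treated clone 4 (log2 fold change -5.16, adjusted p = 9.9e-58). HLA-DMB, which edits class II peptides, stood at 4236 in parental cells, 2680 and 2399 in clone 3, and 620 and 710 in clone 4 (-1.94, adjusted p = 3.65e-20). Clone 3 was thus high in CD74 and parental cells highest in HLA-DMB. Against parental cells, 4 of 8 class II genes tested were higher and 1 lower in clone 3 (14.7% and 14.5% of all genes). In clone 4, 0 of 6 tested were higher and 2 lower than in parental cells (14.7% and 18.3% of all genes). Of 10 class I-like genes and natural killer cell ligands tested in clone 4 against clone 3, 1 rose and 1 fell. HFE, which regulates iron uptake, rose (0.98, adjusted p = 0.000439) and ULBP2, a ligand of the activating receptor NKG2D, fell (-2.11, adjusted p = 1.04e-06). In EIR against parental cells FCGRT, the neonatal Fc receptor that pairs with B2M, fell by 1.51 on the log2 scale (adjusted p = 4.61e-05), PDIA3 of the loading complex fell by 0.80 (adjusted p = 0.00171, 0.0635 in edgeR), and PSMB10 (0.99, adjusted p = 0.0130), PSMA3 (0.77, adjusted p = 0.000803), PSMA1 (0.60, adjusted p = 0.0175) and PSME3 (0.56, adjusted p = 0.0225) rose. None of these last 4 passed in edgeR (adjusted p from 0.0560 to 0.140).

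**Figure D3:**
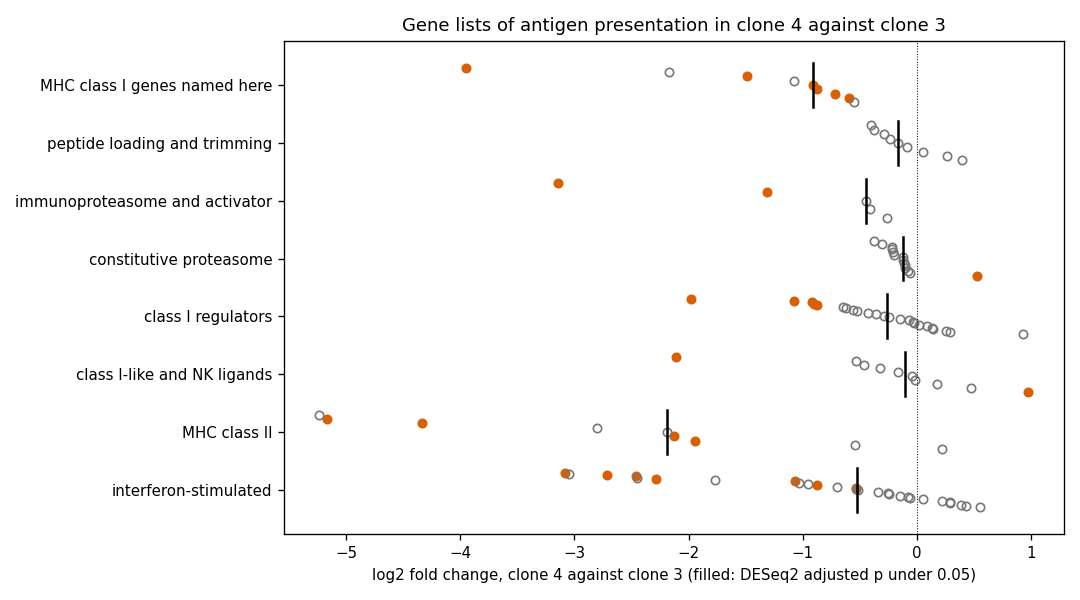
Log2 fold change of clone 4 against clone 3 (x axis) for the genes of each list that entered the adjusted test (1 point a gene, sorted within its list); filled points passed at an adjusted p under 0.05 (DESeq2) and black bars are list medians. The class I genes (median -0.91) and MHC class II genes (-2.19) lie further below 0 than the loading and trimming genes (-0.16) and the constitutive proteasome (-0.12). The class II median is the value of HLA-DRB5, which held 2 to 17 counts and did not pass.

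The neighbours of the class I genes on chromosome 6 were examined because 7 of the 9 genes lie within 3.59 Mb. Of 67 other expressed coding genes (mean normalized count of 100 or more) between HLA-F and TAPBP, 8 fell and 1 rose in clone 4 against clone 3, with a median of -0.14. Of 487 such genes on the rest of chromosome 6, 50 fell and 32 rose (median -0.03), and of 10642 outside the region in the genome 795 fell and 471 rose (median -0.05). The share that fell was 11.9% in the region, 10.3% on the rest of the chromosome and 7.47% outside the region. The 3 neighbours that fell most were TNF, a cytokine (-3.23, adjusted p = 3.43e-30), PSMB8 and DDAH2, a hydrolase of methylated arginine (-2.54, adjusted p = 4.5e-10). MICA, the nearest of the 67 genes to HLA-B at 47.1 kb between gene middles and named after its values were seen, stood at 1791 normalized counts in parental cells, 1603 in each clone 3 library, and 1390 and 1485 in clone 4 (-0.16 ± 0.19 SE, adjusted p = 0.797). HLA-C, 81.7 kb from HLA-B, fell by 0.72 on the log2 scale. A negative log2 fold change was seen in 49 of the 67 genes, 258 of the 487 and 6002 of the 10642. In clone 4 against parental cells, 27 of the 67 were lower and 1 higher (median -0.41). The share lower was 40.3% in the region, 24.2% on the rest of the chromosome and 23.2% outside the region. In clone 3 against parental cells these shares were 28.4%, 19.7% and 19.5%. All of these shares come from fits without the GC correction, while comparisons with parental cells moved with GC content. Genes that fell strongly and genes that changed little lay side by side, and the part of position was not tested.

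**Figure D4:**
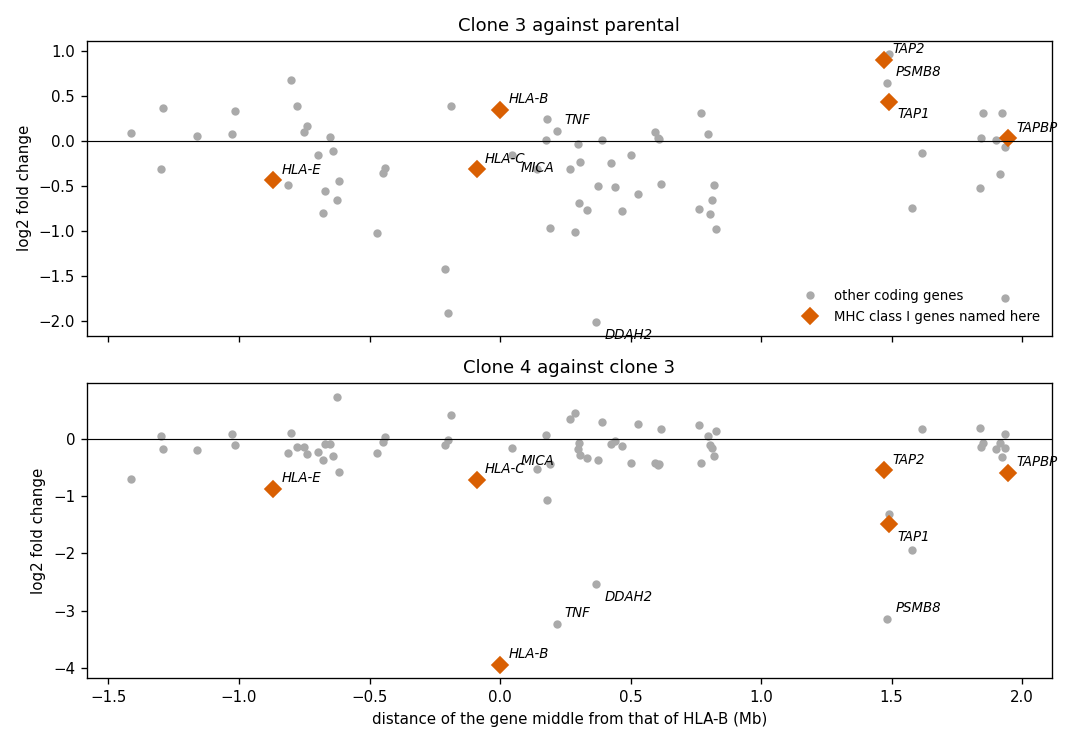
Log2 fold change (y axis) of coding genes between HLA-F and TAPBP by distance from HLA-B (x axis, Mb) in clone 3 against parental cells (top) and clone 4 against clone 3 (bottom); each point is 1 gene and diamonds are genes of the class I group whose mean normalized count is 100 or more. In the lower panel HLA-B (-3.95), TNF (-3.23) and PSMB8 (-3.15) stand far below neighbours that lie near 0, such as MICA (-0.16).

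Among the 9 genes, HLA-B had the widest range over the 5 libraries, 4.29 on the log2 scale. The genes whose profile was most like that of HLA-B, by the root mean square distance of log2 normalized counts centred on each gene's mean over the 5 libraries, were HAPLN3 (0.108), OCLN (0.222), ARHGEF16 (0.237), SPATA18 (0.244) and MAL2 (0.284), out of 11563 compared. OCLN, a tight junction protein, stood at 1120 normalized counts in parental cells, 1540 and 1722 in clone 3, and 91.6 and 174 in clone 4. The other class I genes were less alike, with TAP1 in place 219, HLA-E in 373, HLA-C in 497, B2M in 533, TAPBP in 777 and TAP2 in 2650. With 5 libraries that fall into 3 cell lines, such likeness mostly states a low level in clone 4, and it is given as a description.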

How the data were processed

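RNA-seq libraries were prepared with a total RNA kit (TruSeq) and sequenced as 75 bp paired-end reads. The authors aligned the reads to hg19 with bowtie2 and estimated gene counts with RSEM and an Ensembl annotation (its release is not given in the sources used here); the submitters' processing notes name RSEM 1.2.3, and another version stands in the study's methods. The values the authors deposited are expected counts, not normalized, as whole numbers (0 values were not whole), and were used as they stood. RSEM shares out reads that fit several genes, which matters for HLA genes, and whether strand was used is not stated. The column that named no clone was read as parental cells. Symbols, coordinates, GC content and lengths came from GENCODE 44 on GRCh37 (29203 of 30476 identifiers, 95.8%, matched), and promoters from RefSeq.

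Comparisons were fitted on the whole table with the Wald test (two-sided) of DESeq2 1.42.0, run in R 4.3.3 with its median-of-ratios scaling. A gene passed at an adjusted p (Benjamini-Hochberg) under 0.05. Tool and threshold follow the methods of the study. The comparisons were EIR against parental, each clone against parental in a fit with 3 groups, and, in the 4 EIR libraries, clone 4 against clone 3 with treatment as covariate and GSK126-treated against untreated. With 1 parental library the spread came from the EIR libraries. Alternatives were edgeR 4.0.16 (quasi-likelihood test, TMM), other scalings, a filter of at least 10 counts in at least 2 libraries, a smooth GC trend per library (lowess span 0.3), leaving out each EIR library, summed clones, covariates and the replicate block. Libraries with the same number come from the same clone, so the numbers pair them; their deviations from the group means correlated at 0.862 over 11564 genes. The fits of the comparisons in DESeq2 and edgeR were tested on simulated counts with known changes. The 95% interval of the HLA-F count ratio is an exact binomial interval on the summed counts of the clones, scaled by the size factors. It covers counting error only, since PCR copies without molecular identifiers are not independent molecules.

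The members and lists were chosen with earlier results of these data known. Named genes were the 9 members, up to 3 called genes per direction from each list (mean of at least 100 normalized counts, ordered by fold change, in EIR against parental and clone 4 against clone 3), the 5 nearest profiles to the member with the widest range, and up to 3 called neighbours per direction with an absolute log2 fold change over 1; other names are markers or were chosen after their values were seen. Lists were described by counts and medians, with no set test. Some single-gene results are not reported here.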

Additional observations from a re-analysis of the deposited data

Results flagged for a closer look

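For 6 genes the clones differed by a test of the difference itself (DESeq2, clone 4 against clone 3, 2 libraries a clone, both clone 4 libraries lower in each gene). Of all 17708 genes tested 6.52% were called lower, and 32.6% of the 16928 genes with at least 10 counts in at least 2 libraries showed that order. The log2 fold changes were -3.95 for HLA-B, -1.49 for TAP1, -0.91 for B2M, -0.88 for HLA-E, -0.72 for HLA-C and -0.59 for TAPBP. Of these genes, HLA-E, B2M and TAP1 moved in opposite directions in normalized counts on GSK126 treatment in the clones. That difference was not tested, with 1 library per clone and treatment. The log2 ratios of TAP1 were small, 0.09 in clone 3 and -0.03 in clone 4. The direction depended on the scaling, since in TPM B2M rose on treatment in both clones (601 to 708 and 308 to 356). TAP1 did so too (31.6 to 33.5 in clone 3 and 9.83 to 12.4 in clone 4). HLA-E kept opposite directions in TPM (126 to 113 in clone 3 and 52.4 to 73.0 in clone 4). TAPBP, at 3892 normalized counts in both clone 3 libraries, moved in clone 4 alone. The treated to untreated log2 ratio in clone 4 minus that in clone 3 was 0.25 for HLA-E, -0.41 for B2M, -0.13 for TAP1 and 0.16 for TAPBP.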

How the results depend on the processing

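Over the values of the 9 genes, 390 alternative values kept direction and side of the threshold (direction alone for HLA-F against parental cells, which had no adjusted p), 15 newly passed, 21 no longer passed and 28 reversed; the cause was not tested. HLA-B, HLA-E, B2M and TAP1 passed as lower in clone 4 than in clone 3 under each of the 10 alternatives, HLA-C and TAPBP under 8. In EIR against parental cells the number of genes called was 4157, and 1746 in edgeR, 1914 with the libraries of each clone summed and 1998 with treatment as covariate; of the 9 genes 1 passed, and 0 in edgeR (1 at an unadjusted p under 0.05) and 0 with treatment as covariate. In clone 3 against parental cells 3 of the 9 passed, and 5 with at least 10 counts in at least 2 libraries. Reversed values were, with the GC correction, -0.20 for B2M, 0.20 for TAP1 and 0.10 for TAPBP in EIR against parental cells and 0.057 for HLA-C and 0.013 for HLA-E in clone 3 against parental cells, and -0.011 for B2M with treatment as covariate. For GSK126-treated against untreated cells the number of genes called was 1, and 0 in edgeR (232 at an unadjusted p under 0.05), 4 with the replicate block and 7 with the block and GC correction; the block in edgeR gave 1, and the block changed no call of the 9 genes. Summed class I HLA counts had a log2 ratio of -1.52 in clone 4 against clone 3 and -1.63 against parental cells over 4 genes, and of -1.11 and -1.14 over all 12.

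Leaving out 1 EIR library gave, in EIR against parental cells, -0.18 to 0.21 for B2M, -0.15 to 0.53 for HLA-F and -0.40 to 0.10 for TAP1. Counts of genes called ranged from 1983 (without GSK126-treated clone 3) to 5023 in clone 3 against parental cells, from 3339 (without untreated clone 3) to 4623 in clone 4 against parental cells, from 831 (without GSK126-treated clone 3) to 2800 (without untreated clone 4) in clone 4 against clone 3, and from 1 to 25 (without untreated clone 3) in treated against untreated cells. Of the 9 genes, 0 to 5 passed in clone 3 and 4 to 7 in clone 4 against parental cells, and 4 to 8 in clone 4 against clone 3. For treated against untreated cells, where the clones weigh unequally in these fits, values ranged from -2.71 to 3.40 for HLA-B, from -0.13 to 0.72 for HLA-C, from -0.50 to 0.53 for HLA-E, from -1.09 to 0.83 for HLA-F, from -0.59 to 0.54 for B2M, from -0.94 to 0.94 for TAP1, from -0.16 to 0.46 for TAP2 and from -0.25 to 0.43 for TAPBP. Fewer than 10 counts in clone 4 limit HLA-F, and 15 counts in parental cells limit NLRC5.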
